A study of Homo sapiens with 10 samples.

Results

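The pair described here is made up of 2 of the 31848 rows of an RNA-seq table of HEK293T cells, row '8200' (transcript uc021rsp.1) and row '8208' (transcript uc021rst.1), named below by their transcripts. Each row holds 1 transcript of 301 nt. Both were chosen by measured values: in an earlier look at the same libraries, uc021rst.1 was the single row called at least 4-fold higher in all 4 activator groups than in the control, and uc021rsp.1, of equal length, moved with it. Their excess over the control is therefore given as a description, with no test. The differences among activators, the division of reads between the rows and other rows of like length were not themselves used to choose them. The rise of uc021rst.1 over the control in each of the 4 activator groups was used, however. The libraries are also the same, so the comparisons below are not independent of the choice.

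HEK293T is a human embryonic kidney cell line. All 10 libraries came from cells that were transfected by lipid with a guide RNA to the fetal globin gene HBG1. In 4 groups of 2 libraries the cells also received an activator built on dead Cas9, a Cas9 that binds DNA without cutting it. VP64 carries activation sequence of viral origin, and VPR joins VP64 to the p65 and Rta domains. SAM brings in further domains through hairpins in the guide, and Suntag gathers many copies of VP64 on a peptide array. The remaining group of 2 libraries was labelled Guide Only Control. The labels do not give which cells took up the plasmids, or whether the replicates were separate cultures, so the spread between replicates may be technical. No group received dead Cas9 without an activation domain. RNA was poly(A)-selected, and library totals ran from 3316534 to 7447949 expected counts.

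The rows were proposed as candidates for copies of 7SL RNA. 7SL RNA is the RNA scaffold of the signal recognition particle, which binds the signal peptide of a protein as it leaves the ribosome and brings the ribosome to the endoplasmic reticulum. It is transcribed by RNA polymerase III, is abundant in the cytoplasm, gave rise to the Alu family of repeats, and is not polyadenylated in the way of a messenger RNA, so the levels below are those of molecules that passed a poly(A) selection. The tables pair row numbers with transcript identifiers and hold no gene names or coordinates. Of the 2 identifiers, 0 matched an entry of the reference tables, so that the identity of the rows with 7SL RNA was not tested. GENCODE 29 names 680 genes as RN7SL copies or pseudogenes, and 12 of them are 301 nt long, so the length alone does not single out a gene. Protein partners of 7SL RNA, other RNA polymerase III transcripts and marker genes of the cell line could not be located for the same reason.

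The pair was lowest in the control and highest in SAM. Summed over both rows, the expected counts, which are RSEM's estimates of the reads that belong to a row, were 42 and 37 in the control, 227 and 89 in Suntag, 163 and 194 in VPR, 270 and 153 in VP64, and 183 and 270 in SAM (replicates 1 and 2). Scaled by library totals, the level was 9.01 and 6.09 CPM (counts scaled to a library of a fixed size) in the control, 39.6 and 15.9 CPM in Suntag, 32.3 and 26.0 CPM in VPR, 50.4 and 46.1 CPM in VP64, and 53.3 and 60.9 CPM in SAM. Every activator library lay above both controls, which is the pattern the rows were chosen for, and the lowest of them, Suntag replicate 2, stood 1.77-fold above the higher control. The group means were 57.1 ± 5.38 CPM in SAM, 48.3 ± 3.05 in VP64, 29.2 ± 4.41 in VPR, 27.8 ± 16.7 in Suntag and 7.55 ± 2.07 in the control (SD, n = 2 each). Relative to the control these means were 7.55-fold in SAM, 6.39-fold in VP64, 3.86-fold in VPR and 3.68-fold in Suntag. All 4 ratios share the same 2 control libraries. In bulk RNA, a rise in a few cells and a smaller rise in many cannot be told apart.

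**Figure D1:**
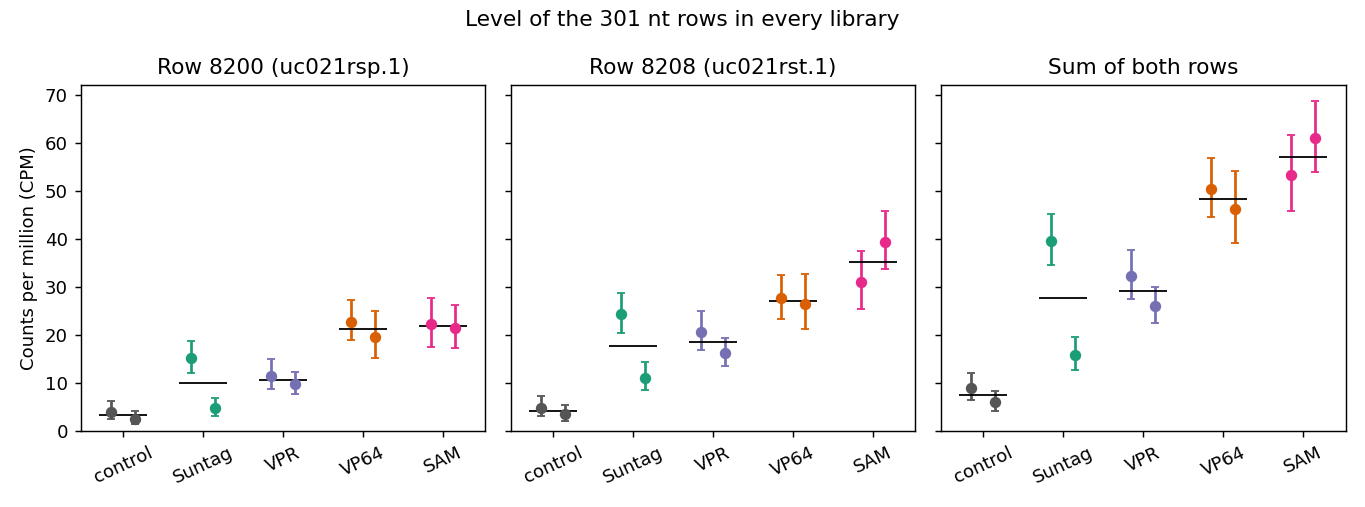
Level of uc021rsp.1, uc021rst.1 and their sum (CPM, vertical axis) in the 10 libraries by group, with replicate 1 left of replicate 2. Points are libraries, bars are exact 95% Poisson intervals that cover counting error only, and black lines are group means. The SAM and VP64 libraries lie at 46.1 CPM or more in the sum, the controls at 9.01 or less, and the 2 Suntag libraries lie far apart.

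The 2 Suntag libraries differed more than those of any other group. Replicate 1 stood 2.48-fold above replicate 2 in the summed level, against 1.09-fold to 1.48-fold between the higher and lower replicate of the other groups. The counting intervals of the Suntag libraries, 34.6 to 45.1 CPM and 12.8 to 19.6 CPM, did not overlap, and cover counting error only. Without Suntag replicate 2 the Suntag mean was 5.24-fold the control, and without replicate 1 it was 2.11-fold. Suntag replicate 2 also had the shortest mean fragment, 89.8 nt, whose part in its low level was not tested.

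The uc021rst.1 row was the more abundant of the rows in 10 of 10 libraries. It held 4.92 and 3.56 CPM in the control, 24.4 and 11.2 in Suntag, 20.7 and 16.2 in VPR, 27.6 and 26.5 in VP64, and 31.1 and 39.4 in SAM. Its group means were 8.32-fold the control in SAM, 6.39-fold in VP64, 4.36-fold in VPR and 4.20-fold in Suntag. The lowest of these, in Suntag, lay just above 4-fold. The 4-fold bound on which the row had been selected was set on called fold changes, which may differ from ratios of mean CPM. The Suntag ratio was 2.64-fold without Suntag replicate 1, and by deposited TPM the ratios were 3.58-fold in Suntag and 3.79-fold in VPR. Every activator library of this row lay above both controls, which is the pattern the row was chosen for. How many other rows share that pattern was not counted.

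The uc021rsp.1 row held 4.10 and 2.54 CPM in the control, 15.2 and 4.78 in Suntag, 11.6 and 9.80 in VPR, 22.8 and 19.7 in VP64, and 22.2 and 21.4 in SAM. Its means were 6.58-fold the control in SAM, 6.40-fold in VP64, 3.23-fold in VPR and 3.01-fold in Suntag, so that by mean CPM it lay under 4-fold in VPR and Suntag. Suntag replicate 2, at 4.78 CPM (26.7 counts), barely exceeded control replicate 1, at 4.10 CPM (19.1 counts). Their counting intervals of 3.14 to 6.97 CPM and 2.47 to 6.39 CPM overlapped. By deposited TPM (a level per effective length of transcript) the same libraries were at 46.2 and 46.1, which are indistinguishable. Without Suntag replicate 1 the ratio of Suntag to the control was 1.44 for this row.

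How reads were divided between the rows bears on what each level means. The counts of uc021rsp.1 lay from 0.01 (VPR replicate 2) to 0.42 from a whole number, whereas the sum of both rows was whole within 0.01 in 9 of 10 libraries. The exception was SAM replicate 1, whose sum of 182.92 lay 0.08 away. A whole sum is what a division of reads within the pair gives, and the sum is the firmer level. The uc021rsp.1 row took from 30.0% (Suntag replicate 2) to 45.5% (control replicate 1) of the pair's counts, with a median of 40.0%. By group its share was 43.9 ± 1.85% in VP64, 43.6 ± 2.69% in the control, 38.4 ± 4.59% in SAM, 36.8 ± 1.20% in VPR and 34.2 ± 5.90% in Suntag (SD, n = 2 each). The share did not order with the level, as the control and VP64, far apart in level, had the highest shares.

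Whether the activators differed among themselves was tested on pairs of groups that leave the control out of the contrast. SAM stood above VPR and Suntag, and VP64 stood above both as well, while SAM and VP64 lay close together and so did VPR and Suntag. None of these differences passed the test after adjustment over all rows. For the summed pair the log2 difference by edgeR's quasi-likelihood test was 0.89 ± 0.26 (SE) for SAM minus VPR, with a 95% interval of 0.33 to 1.45 and adjusted p = 0.0605. It was 0.98 ± 0.27 for SAM minus Suntag, with an interval of 0.41 to 1.54 and edgeR adjusted p = 0.0717. VP64 minus VPR gave 0.74 ± 0.27, with an interval of 0.17 to 1.30 and edgeR adjusted p = 0.465. VP64 minus Suntag gave 0.82 ± 0.27, with an interval of 0.25 to 1.40 and edgeR adjusted p = 0.17. The intervals are those of single comparisons and are not adjusted for the number of rows or pairs.

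The remaining pairs had intervals on both sides of 0. SAM minus VP64 was 0.15 ± 0.26, with an interval of -0.40 to 0.70 and edgeR adjusted p = 0.786. Both SAM libraries exceeded both VP64 libraries in CPM, but with TMM scaling SAM replicate 1, at 50.9 CPM, lay below VP64 replicate 1, at 51.6 CPM. VPR minus Suntag was 0.09 ± 0.28, with an interval of -0.50 to 0.67 and edgeR adjusted p = 0.925, and the VPR libraries lay between those of Suntag. These intervals do not show that the groups are alike, since they reach to 0.70 and 0.67. In the order SAM, VP64, VPR and Suntag, no step between neighbours passed the test after adjustment. Of these steps, only VP64 minus VPR had an unadjusted interval that lay above 0.

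**Figure D2:**
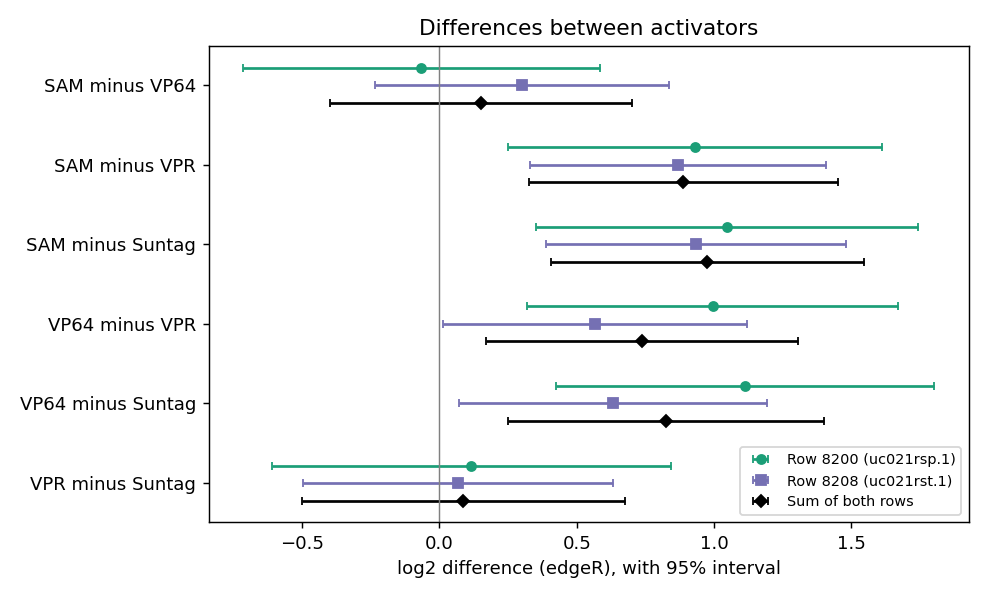
Fitted log2 difference (horizontal axis) for the 6 pairs of activators (vertical axis), for uc021rsp.1, uc021rst.1 and their sum. Points are edgeR estimates and bars their unadjusted 95% intervals. The intervals of SAM and VP64 against VPR and Suntag lie to the right of 0, and those of SAM minus VP64 and VPR minus Suntag cross it.

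Over the 6 pairs, 0 passed an adjusted p of 0.05 by edgeR for the sum, and 4 had an unadjusted p under 0.05. DESeq2 called 0 for the sum, gave 1 unadjusted p under 0.05, and set no adjusted p for 5 of the 6 pairs. The share of all 13241 tested rows that edgeR called in either direction was 5.68% for SAM against VPR, 4.29% for SAM against VP64, 1.72% for SAM against Suntag, 0.234% for VP64 against Suntag, 0.00755% for VP64 against VPR and 0% for VPR against Suntag. Several other settings moved calls of the sum. SAM minus VPR passed in 4 of 6 other settings and SAM minus Suntag in 2 of 6. The calls over all rows changed in those settings too, and are given in the closing section. VPR minus Suntag changed sign from 0.09 to -0.44 without Suntag replicate 2. It also turned to -0.058 without VPR replicate 1 and to -0.17 with the length trend removed. Without Suntag replicate 1, SAM minus Suntag was 1.81, VP64 minus Suntag 1.66 and VPR minus Suntag 0.93. Without Suntag replicate 2, SAM minus Suntag was 0.45 and VP64 minus Suntag 0.30. SAM minus VPR stayed at 0.89 with either Suntag library left out. Each of these fits rests on 1 Suntag library, so the differences alone are given.

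The rows were also tested singly. SAM minus VPR was 0.93 for uc021rsp.1 and 0.87 for uc021rst.1 (edgeR adjusted p = 0.099 and 0.0561), and SAM minus Suntag was 1.05 and 0.93 (0.103 and 0.0721). VP64 minus VPR was 0.996 for uc021rsp.1 and 0.57 for uc021rst.1 (edgeR adjusted p = 0.436 and 0.573), and VP64 minus Suntag was 1.11 and 0.63 (0.129 and 0.278). SAM minus VP64 was -0.07 for uc021rsp.1 and 0.30 for uc021rst.1, and VPR minus Suntag 0.12 and 0.07. The estimates of the rows for SAM minus VP64 had opposite signs, each with an interval on both sides of 0. Since reads are divided between the rows, the difference between them was not tested.

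Among all 31848 rows, the pair ranked lower in the control libraries than in the activator libraries. By summed TPM it ranked 1662 and 2563 in the control libraries, 208 and 217 in SAM, 250 and 259 in VP64, 438 and 546 in VPR, and 344 and 1080 in Suntag. The mean level was 85.0 ± 23.1 TPM in the control and 584 ± 17.5 in SAM, 493 ± 12.6 in VP64, 286 ± 37.2 in VPR and 267 ± 159 in Suntag (SD, n = 2 each). On this scale the ratios to the control were smaller, at 6.87, 5.80, 3.36 and 3.14. TPM takes account of the effective length, which for a transcript of 301 nt was 184.76 and 186.07 nt in the control and from 190.45 to 217.89 nt in the activator libraries.

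Other rows of about the same size give a frame for these values. The tables list 206 other rows of 1 transcript that are within 20 nt of the pair's length, and 171 of them had no counts in any library. The pair held 58.5% of all counts in this length class over the 10 libraries, 42.5% and 28.2% in the controls. Among the activator libraries its share ran from 39.0% in Suntag replicate 2, between the controls, to 73.0% in VP64 replicate 2, and the other activator libraries lay above both controls. The pair was chosen for exceeding the control and the other rows were not, so this difference in share follows in part from that choice. Only 3 of the other rows had more than 10 counts in total. The most abundant of them, of 299 nt, held 8.98 ± 1.20 CPM in the control and 23.8 ± 5.74 in SAM, 12.6 ± 0.560 in VP64, 14.0 ± 3.23 in VPR and 15.9 ± 0.378 in Suntag. Its ratios to the control were 2.65, 1.41, 1.56 and 1.77. The next, of 318 nt, had ratios of 2.76, 1.68, 1.75 and 2.04 from a control level of 3.27 ± 0.110 CPM. Its mean was 9.004 ± 0.767 CPM in SAM, 5.49 ± 2.88 in VP64, 5.70 ± 1.38 in VPR and 6.66 ± 1.17 in Suntag. The VP64 libraries lay apart, at 7.53 and 3.46 CPM, the second of them close to the controls at 3.19 and 3.34. Both had higher means than the control in all 4 activator groups, and SAM had the highest mean for each. The third, of 302 nt, was at 0.892 ± 0.611 CPM in the control and below that in every activator group, with too few counts to rank. Of the 206 other rows, 2 were tested. At an adjusted p under 0.05, edgeR called 2 of these 2 higher in SAM than in the control, and 0 for the other activators. It called 1 of them higher in SAM than in VP64, and 0 for the other pairs of activators. The share of all tested rows called was 5.2% for SAM against the control and 4.29% for SAM against VP64.

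**Figure D3:**
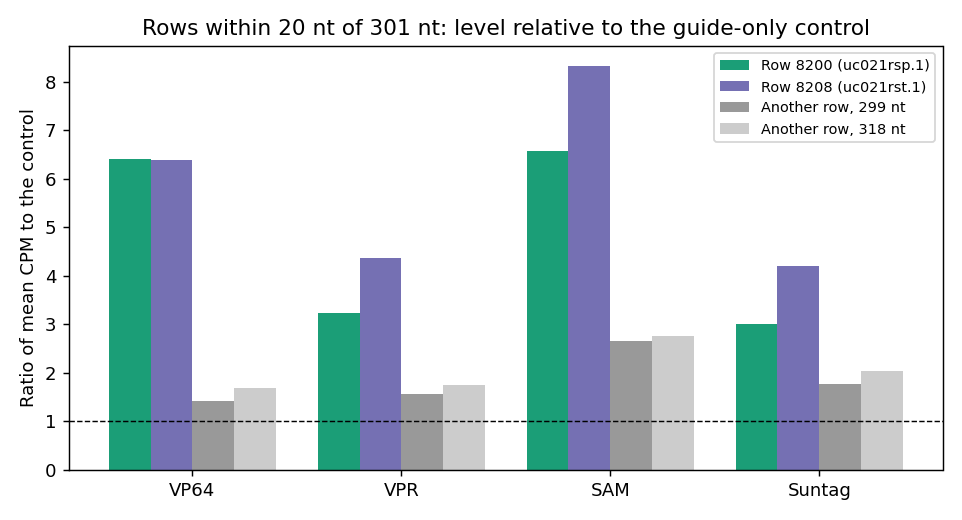
Ratio of mean CPM to the guide-only control (vertical axis) in the 4 activator groups, for both members of the pair and the most abundant other rows of similar length (299 and 318 nt). Bars start at 0, the dashed line marks 1, and there are 2 libraries per group. The members, which were chosen by this ratio, stand at 3.01 to 8.32 and the other rows at 1.41 to 2.76.

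Levels of other short transcripts are given beside the pair, and their part in the result was not tested. Among 15 other tested rows of 200 to 400 nt, the median log2 ratio to the control was 0.61 for VPR, 0.46 for VP64, 0.26 for SAM and 0.18 for Suntag, against medians of -0.0164, -0.00197, 0.00589 and 0.000815 over all 13241 rows tested. Against the control, edgeR called 4 of the 15 rows higher in VPR, 1 in VP64, 2 in SAM and 1 in Suntag, and 0 lower in each. The share of all tested rows called in either direction in these contrasts was 6.6% for VPR, 0.816% for VP64, 5.2% for SAM and 1.33% for Suntag. Between activators, the median of the 15 rows of 200 to 400 nt for SAM minus VPR was -0.30, and for VP64 minus VPR -0.04. By edgeR at the same threshold, 0 of the 15 rows were called higher and 1 lower for SAM against VPR. For SAM against VP64 it was 1 in each direction, and for the other pairs of activators 0. With the trend of each library on transcript length removed, SAM minus VPR was 1.20 for the summed pair (edgeR adjusted p = 0.00804) and VP64 minus VPR 0.90 (0.63).

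Fragment length differed between groups as well. The mean fragment of a library was taken as the largest difference between length and effective length over all its rows of 1 transcript, which for transcripts as short as the pair is smaller. It measured 131 ± 2.51 nt in the control, 113 ± 13.9 in VP64, 112 ± 1.46 in VPR, 107 ± 13.1 in SAM and 93.2 ± 4.82 in Suntag (SD, n = 2 each). Both controls, at 133 and 129 nt, lay above all 8 activator libraries, so fragment length and the presence of an activator cannot be told apart in the contrast with the control. Among the activator libraries, the lowest level, in Suntag replicate 2, and the highest, in SAM replicate 2, had fragments of 89.8 and 97.5 nt. The VP64 libraries, at 103 and 123 nt, were within 1.09-fold of each other in level. The part of fragment length in these levels was not tested. With effective length as an offset in the fit, SAM minus VPR was 0.85 and SAM minus Suntag 1.04, with edgeR adjusted p = 0.0941 and 0.0864.

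**Figure D4:**
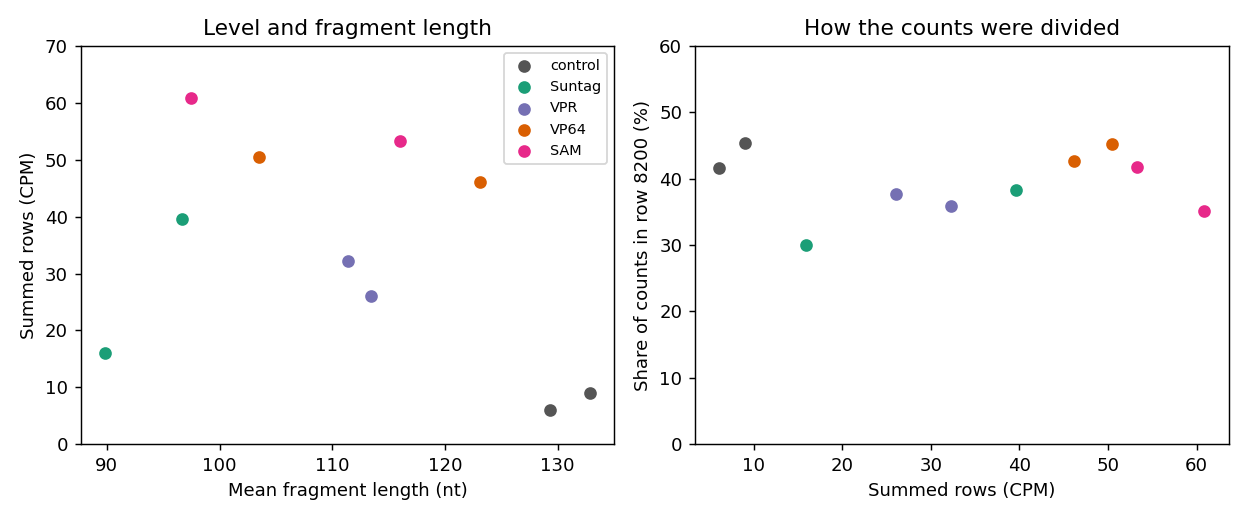
Left, summed level of the pair (CPM) against the mean fragment length of each library (nt). Right, share of the pair's counts in uc021rsp.1 (%) against the summed level (CPM). Points are the 10 libraries, coloured by group; the controls have the longest fragments, 129 and 133 nt, and the lowest levels, and the share lies between 30.0% and 45.5%.

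The rows whose level followed the pair most closely over the 10 libraries were chosen by correlation alone. Among 8641 rows with a mean of at least 10 TPM, the 5 with the highest Pearson correlation of log2(TPM + 1) with the summed pair had coefficients from 0.898 to 0.932. These describe 10 points that share the 2 low controls. The closest, a row of 1 transcript of 1307 nt, stood at 22.6 ± 0.552 TPM in the control, 31.3 ± 1.05 in Suntag, 37.1 ± 1.26 in VPR, 37.6 ± 2.25 in VP64 and 41.5 ± 1.85 in SAM (SD, n = 2 each). The 5 rows had SAM means from 1.25-fold to 2.54-fold the control. With a minimum of 1 TPM, 3 of the 5 were the same rows.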

How the data were processed

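Poly(A) RNA of HEK293T cells was measured in 10 libraries, 2 in each of 5 groups, and groups and replicate numbers follow the titles. Libraries, per the labels' protocols, used random hexamers and tagmentation, which does not keep the strand. Per the submitters' processing notes the deposited expected counts came from RSEM 1.2.1 with build hg19, on an annotation not stated in the sources at hand. The authors' TPM values, per the file headers, are scaled by effective length, and transcript and effective lengths stand beside them. The deposited FPKM values were not used.

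The members and lists were chosen with earlier results of these data known. Expected counts were rounded and fitted with edgeR 4.0.16 (R 4.3.3): filterByExpr (13241 rows, or 13240 with the pair as 1 row summed before rounding), scaling by TMM, and quasi-likelihood F tests from a single model of the 10 libraries with 5 residual degrees of freedom. P-values were adjusted by Benjamini-Hochberg over all rows within each pair of activators, with a threshold of 0.05. SE was derived from the log2 difference and F. A two-sided exact permutation test of 2 against 2 cannot go below p = 0.333. CPM used the library's summed expected counts. The test was checked on simulated data. Beside the members, the rule named the 5 rows most correlated with the pair, and row numbers of no others are printed. Alternatives were RLE factors, DESeq2 1.42.0, no filter, the compared groups alone, a replicate block, each library left out, an effective length offset, a removed length trend, and for levels the deposited TPM, TMM and RLE scaling. The prewritten lists of signal recognition particle and RNA polymerase III genes were not tested, since rows carry no names. Sequences of the candidate genes are not reported here.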

Additional observations from a re-analysis of the deposited data

How the results depend on the processing

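The ratios of the summed pair to the control stayed above 1 in every setting run. Every activator library lay above both controls, the pattern the rows were chosen for, so leaving out 1 library could not change that. Leaving 1 out moved the ratios between 6.33 and 9.37 in SAM, 5.36 and 7.93 in VP64, 3.24 and 4.79 in VPR, and 2.11 and 5.24 in Suntag. The differences between activators were more dependent on the setting. SAM minus VPR passed the threshold with no filter on low counts (0.86, edgeR adjusted p = 1.47e-07), with the length trend removed (1.20), with the compared groups alone (0.89, 0.00153) and with the replicate block (0.90, 0.0443). SAM minus Suntag passed with no filter (0.95) and with the length trend removed (1.03). VP64 minus VPR passed with no filter (0.72) and with the compared groups alone (0.74), and VP64 minus Suntag with no filter (0.81). Without a filter 19962 rows were tested and the calls over all rows grew too. They went from 1 to 83 for VP64 against VPR and from 753 to 1444 for SAM against VPR. For SAM against Suntag they went from 227 to 856, and for VP64 against Suntag from 31 to 528. With the compared groups alone they were 1031 for SAM against VPR and 39 for VP64 against VPR. With the length trend removed they fell to 408 for SAM against VPR and 215 for SAM against Suntag. With the replicate block they fell to 624 for SAM against VPR. The cause was not tested. VPR minus Suntag turned to -0.17 with the length trend removed, and for the single rows to -0.14 (uc021rsp.1) and -0.19 (uc021rst.1). SAM minus VP64 of uc021rsp.1 turned to 0.086 in that setting. RLE factors and the effective length offset changed no call or direction of the sum. Leaving out 1 library moved the summed differences between 0.033 and 0.25 for SAM minus VP64, 0.71 and 1.04 for SAM minus VPR, 0.45 and 1.81 for SAM minus Suntag, 0.56 and 0.88 for VP64 minus VPR, 0.30 and 1.66 for VP64 minus Suntag, and -0.44 and 0.93 for VPR minus Suntag. For VPR minus Suntag, uc021rsp.1 ran from -0.49 to 1.21 and uc021rst.1 from -0.41 to 0.78, and for SAM minus VP64 uc021rsp.1 ran from -0.15 to 0.060.

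Libraries of the same replicate number did not deviate together (correlations across rows from -0.067 to 0.062), so the numbers are not taken as a pairing, and the replicate block is given as a setting only. DESeq2 gave no adjusted p for either single row, nor for the sum in 5 of 6 pairs, and those comparisons are left out of the counts of calls. The control level rests on 37 and 42 counts, and with 2 libraries a group the spread is borrowed from all groups.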
